A study of Mus musculus with 6 samples.

Results

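The platelet-derived growth factor (PDGF) ligands and receptors were described in the mouse Leydig cell line TM3, with and without overexpression of A20. The members were the rows of the deposited gene count table named Pdgfa, Pdgfb, Pdgfc, Pdgfd, Pdgfra, Pdgfrb or Pdgfrl. All 7 were present among 54532 genes. RNA sequencing had been done on 6 libraries, 3 from control cells with the genotype label WT and the title O/E control, and 3 from cells labelled A20 overexpression. Both groups were TM3 cells grown with fetal bovine and horse serum. The labels do not say how A20 was delivered, what the controls carried in its place or whether each library came from its own culture. The p-values therefore measure the spread between these libraries, which may be technical.

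PDGFs are secreted dimers that act on tyrosine kinase receptors of mesenchymal cells. PDGF-A and PDGF-B are cut to their active form inside the cell by furin-type convertases. PDGF-C and PDGF-D are secreted in a latent form and activated outside the cell, PDGF-C by tissue plasminogen activator and PDGF-D by urokinase. The alpha receptor binds the A, B and C chains and the beta receptor the B and D chains. In the testis, PDGF-A from the tubules acts on interstitial cells that carry the alpha receptor, among them the progenitors of adult Leydig cells. A20 is encoded by Tnfaip3 and dampens inflammatory signalling through NF-kB by editing ubiquitin chains.

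The promoters of Pdgfc and Pdgfd, the 2 ligands secreted in latent form, are shown because their RNA behaved differently: Pdgfc was present in every library and Pdgfd in a single one. Each sequence lies upstream of the annotated gene and is the 250 bases before the RefSeq start on GRCm38.p6, written 5′ to 3′ on the gene's own strand. Capitals mark matches to 7 motifs searched on both strands. GGGCGG stood for a GC box and TATAAA for a TATA box. The motif of SF-1, a transcription factor of steroidogenic cells, was searched for as AAGGTCA, that of the growth factor-induced Egr proteins as GCGGGGGCG, and the AP-1 site as TGANTCA. The NF-kB motif and the CArG box, the site of serum response factor, were the others.
Pdgfc, chr3:81036166-81036415, plus strand: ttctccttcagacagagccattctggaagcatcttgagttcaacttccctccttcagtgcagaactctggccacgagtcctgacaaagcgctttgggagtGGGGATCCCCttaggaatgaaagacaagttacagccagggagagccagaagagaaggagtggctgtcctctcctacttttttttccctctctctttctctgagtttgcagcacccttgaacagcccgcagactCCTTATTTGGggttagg
Pdgfd, chr9:6168236-6168485, plus strand: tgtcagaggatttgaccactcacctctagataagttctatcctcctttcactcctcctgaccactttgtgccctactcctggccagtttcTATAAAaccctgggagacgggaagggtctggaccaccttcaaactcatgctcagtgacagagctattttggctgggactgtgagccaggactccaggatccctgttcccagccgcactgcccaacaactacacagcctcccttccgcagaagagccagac
In Pdgfc, an NF-kB match lay 150 bases and a CArG match 17 bases before the start, motifs found in 3.90% and 1.47% of 32851 RefSeq promoters of this length. Pdgfd held a TATA box match 160 bases before its start, a match shared by 12.4% of promoters, and none of the other 6 motifs. Neither held a GC box, found in 32.7% of promoters, or an SF-1, AP-1 or Egr match, found in 4.08%, 6.75% and 2.57%. Their GC contents of 50.8% and 53.6% lay near the median of 52.4%. Of the other members with an entry, Pdgfra held none of the 7 motifs, and the 2 windows of Pdgfa, which lie inside the annotated gene, held 1 and 2 GC boxes at GC contents of 66.4% and 72.4%. None of the matches overlapped another, and a match is a run of letters, not evidence of binding.

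Total counts ran from 13841287 to 16917979 per library. Control replicate 1 stood apart from the others, and each PDGF test is given with and without it. The 8 Leydig cell markers examined (Star, Cyp11a1, Hsd3b1, Nr5a1, Insl3, Lhcgr, Cyp17a1 and Hsd3b6) summed to 2040 CPM there (counts per 1000000 of the library total), with all 8 detected. In the other 5 libraries they summed to 3.97 to 7.86 CPM, with 3 or 4 of 8 detected, so the labelled cell type was scarcely marked by its steroidogenic genes. Of 5 macrophage markers 2 (Adgre1 and Ptprc) were at 0 in all 6 libraries, as were 2 of 5 Sertoli cell markers (Sox9 and Fshr). Others were not: Cd68, of macrophages, stood at 3.71 CPM in control replicate 1 and 19.3 to 38.7 CPM elsewhere. Of the Sertoli cell markers, Wt1 stood at 77.5 to 152 CPM. Clu reached 221 CPM in control replicate 1, against 9.10 to 31.1 CPM elsewhere. Pericyte and smooth muscle markers are given below with Pdgfrb. The markers of the 4 remaining cell types were summed in controls and in A20 overexpression. Macrophage markers came to 4.37 to 30.9 and 19.3 to 38.8 CPM, and Sertoli cell markers to 140 to 299 and 132 to 148 CPM. The sums were 3.97 to 36.7 and 3.31 to 5.11 CPM for endothelium, and 6.06 to 9.58 and 7.95 to 12.2 CPM for germ cells. The endothelial sum of 36.7 CPM was that of control replicate 1, where Cdh5 alone stood at 35.1 CPM. Control replicates 2 and 3 had sums of 3.97 and 4.55 CPM. Of the genes of these 4 cell types 1, Clu, passed the test used below, lower in A20 overexpression without control replicate 1. The part of other cell types in the results was not tested. Tnfaip3 itself had levels of 30.9, 11.9 and 15.2 CPM in the controls, given here and below in the order of the replicate numbers, and of 41.0, 33.7 and 43.6 CPM in A20 overexpression. Its fitted log2 difference was 1.08 with all libraries (edgeR adjusted p = 0.331) and 1.51 without control replicate 1 (edgeR adjusted p = 0.000256). A transgene adds to these counts only if its sequence is the mouse one, which is not stated.

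Cells overexpressing A20 held more RNA of 3 ligands, Pdgfa, Pdgfb and Pdgfc, than any control library, but no PDGF gene passed the test across all genes. The receptor genes Pdgfra, Pdgfrb and Pdgfrl overlapped between the groups. Pdgfd could not be compared between the conditions, since its RNA was detected in 1 control library alone. Of the 7 genes, 6 passed the filter on low counts. With all 6 libraries, edgeR's quasi-likelihood test called 0 of these 6 at an adjusted p under 0.05, as it called 0.0150% of 13350 genes (0.00749% higher and 0.00749% lower), and DESeq2 and limma-voom called 0 as well. At an unadjusted p under 0.05, 2 of the 6 were higher in A20 overexpression, beside 4.19% of all genes (10.0% in either direction). Without control replicate 1, edgeR called 0 of 6 and 4.60% of 13658 genes, and again 2 had an unadjusted p under 0.05, beside 10.4% of all genes (21.6% in either direction). DESeq2 called 1 of them, Pdgfb, in those 5 libraries. The 4.60% is the share of edgeR, and that of DESeq2 is not given here, so this call has no background beside it. Groups did not overlap, with A20 overexpression higher, for 3 of 6 in both comparisons, where 7.62% and 20.7% of all genes did so. In either direction, 16.9% and 37.9% of all genes separated the groups. The median log2 fold change of the 6 genes was 0.45 with all libraries and 0.17 without control replicate 1, beside -0.03 and -0.0028 over all genes tested.

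**Figure D1:**
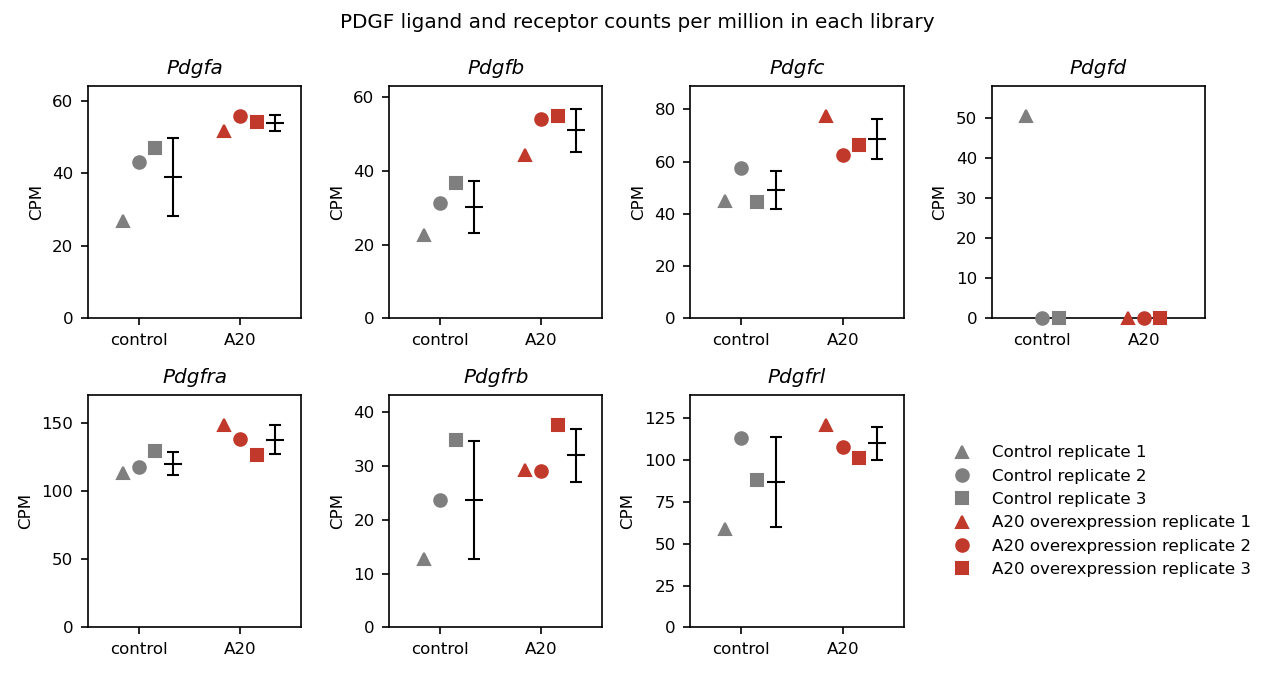
CPM of each PDGF gene (vertical axes, from 0) in 3 control (grey) and 3 A20-overexpressing libraries (red); symbols mark the replicate number, and bars beside the points give the mean ± SD of a group (not drawn for Pdgfd). All A20-overexpressing points for Pdgfa, Pdgfb and Pdgfc lie above the control points, control replicate 1 is the lowest library in 5 panels, and Pdgfd is at 0 in every library but that one.

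Pdgfb, which encodes the chain that binds both receptors, had the largest fitted difference of the 6 tested. The gene (ENSMUSG00000000489) lies on the minus strand of GRCm38 chromosome 15, from 79995874 to 80014977. Its controls had 22.6, 31.2 and 36.8 CPM, and the A20-overexpressing libraries 44.2, 53.9 and 54.7 CPM. The lowest A20-overexpressing library thus lay above the highest control. The control mean of 30.2 CPM ± 7.13 (SD, n = 3) compared with 50.9 CPM ± 5.86 (SD, n = 3) under A20. Over all libraries this gave a log2 fold change of 0.77 ± 0.23 (SE), with an approximate 95% interval of 0.24 to 1.30 and an edgeR adjusted p of 0.389 (unadjusted p = 0.00965). Without control replicate 1 it was 0.55 ± 0.16 (SE), 1.47-fold, with an interval of 0.21 to 0.89 and an edgeR adjusted p of 0.0588 (unadjusted p = 0.00326). The fits without the filter on low counts and with a block for the replicate number called more of all genes than the main fit, as given below. The DESeq2 total in those 5 libraries is not given here. Fits that left 1 control are not listed. In those 5 libraries the adjusted p crossed the threshold with DESeq2 (0.0457), without the filter (0.0234) and with the replicate block. Over all 16 alternatives to that comparison it ran from 0.0194 to 0.26.

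Pdgfc, the latent ligand of the alpha receptor, also separated the groups, by less. Pdgfc (ENSMUSG00000028019, chromosome 3, 81036416 to 81214040, plus strand) stood at 45.1, 57.6 and 44.6 CPM in the controls and at 77.3, 62.6 and 66.4 CPM in A20 overexpression. Control replicate 2 came close to the lowest A20-overexpressing library, and A20-overexpressing replicate 1 lay well above its group. The log2 fold change was 0.50 ± 0.19 (SE) with all libraries (interval 0.07 to 0.93, edgeR adjusted p = 0.453) and 0.39 ± 0.16 (SE) without control replicate 1 (interval 0.04 to 0.73, edgeR adjusted p = 0.182). Single controls decided its size in the 5-library comparison. Without control replicate 3 as well, the log2 fold change was 0.18 (edgeR adjusted p = 0.474), and without control replicate 2 as well it was 0.63 (edgeR adjusted p = 0.0363).

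Pdgfa, the ligand through which tubules act on Leydig progenitors, had its lowest level in control replicate 1, and its groups did not overlap. The gene (ENSMUSG00000025856) lies on the minus strand of chromosome 5, from 138976014 to 138997370. Its controls had 26.9, 43.1 and 47.0 CPM, and A20 overexpression had 51.5, 55.7 and 54.2 CPM. The 3 A20-overexpressing libraries were close together, and 2 of the controls lay just below them. Its log2 fold change was 0.47 ± 0.24 (SE) with all libraries (interval -0.08 to 1.03, edgeR adjusted p = 0.549) and 0.22 ± 0.15 (SE) without control replicate 1 (interval -0.09 to 0.53, edgeR adjusted p = 0.403). The antisense gene 6330403L08Rik touches an exon of Pdgfa and held 10 to 52 counts, at most 5.96% of the Pdgfa count of a library. Since the strand setting is not stated, reads of the pair could not be told apart. Antisense genes that touch exons of Pdgfb and Pdgfc held at most 8 and 3 counts.

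Pdgfd, the latent ligand of the beta receptor, was present in control replicate 1 alone. Its counts (ENSMUSG00000032006, chromosome 9, 6168584 to 6378850, plus strand) were 772 there and 0 in the other 5 libraries. That is 50.3 CPM, against an upper limit of 0.0395 CPM that 3 counts over the 5 libraries allow, and so at least 1272-fold higher in that library. This limit covers counting error only. Pdgfd did not pass the filter on low counts, which asks for counts in more than 1 library, so it had no test in the main comparisons. Without the filter the edgeR test of A20 overexpression gave an unadjusted p of 0.226 and an adjusted p of 0.665, and DESeq2 gave none. The pattern was shared by other genes: 152 protein-coding genes had at least 100 counts in control replicate 1 and 0 in the rest, and Pdgfd was 26th among them by count. For every other library, 0 genes met the same rule. Ddi1, a gene inside an intron of Pdgfd on the opposite strand, held 5 counts in control replicate 1 and 0 elsewhere.

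The Leydig cell markers had the same contrast between libraries. Cyp11a1, which cleaves the cholesterol side chain to start steroidogenesis, reached 851 CPM in control replicate 1 against 0 to 0.144 CPM elsewhere. Lhcgr, the luteinizing hormone receptor, reached 7.36 CPM there and was not counted in any other library. Nr5a1, which encodes SF-1, was at 125 CPM against 0.0697 to 0.596 CPM. Pdgfra, by contrast, was at 113 CPM in control replicate 1, close to the 118 to 148 CPM of the other libraries, and Pdgfrb, the receptor that PDGF-D binds, was lowest there. Fewer cells of a type and less RNA per cell cannot be told apart in bulk RNA, and what set control replicate 1 apart was not tested.

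**Figure D2:**
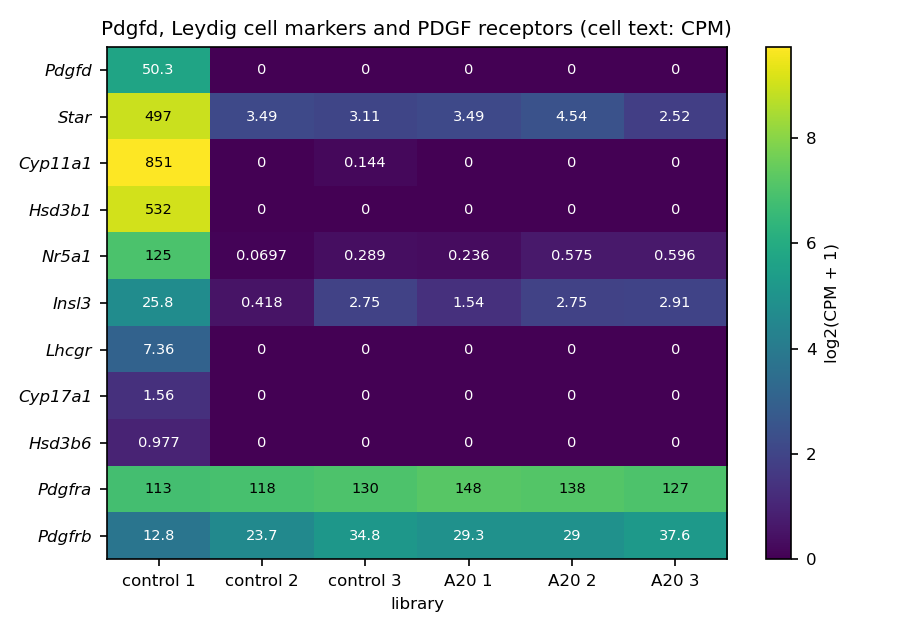
CPM (numbers in the cells; colour is log2(CPM + 1)) of Pdgfd, 8 Leydig cell markers and the kinase receptors Pdgfra and Pdgfrb (rows) in the 6 libraries (columns). Pdgfd and all 8 markers are highest in control replicate 1, where Pdgfd is at 50.3 CPM; Pdgfra differs little, with 113 CPM in that library and 118 to 148 CPM elsewhere.

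Pdgfra, the alpha receptor and a marker of interstitial Leydig progenitors, varied least among the 6 tested. Pdgfra (ENSMUSG00000029231, chromosome 5, 75152292 to 75198215, plus strand) stood at 113, 118 and 130 CPM in the controls and at 148, 138 and 127 CPM in A20 overexpression. Control replicate 3 lay above A20-overexpressing replicate 3, so the groups overlapped. The log2 fold change was 0.22 ± 0.16 (SE) with all libraries (interval -0.14 to 0.57, edgeR adjusted p = 0.668) and 0.12 ± 0.14 (SE) without control replicate 1 (interval -0.17 to 0.42, edgeR adjusted p = 0.663). A log2 difference of up to 0.42 lies inside the second interval. Genes that touch Pdgfra exons (Gm42802, Gm42803 and Mir7025) held at most 6 counts.

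Pdgfrb, the beta receptor, best known in pericytes and other mural cells, had a spread among controls wider than the gap between the group means. Pdgfrb (ENSMUSG00000024620, chromosome 18, 61045150 to 61085061, plus strand) stood at 12.8, 23.7 and 34.8 CPM in the controls and at 29.3, 29.0 and 37.6 CPM in A20 overexpression. Control replicate 3 exceeded A20-overexpressing replicates 1 and 2. The log2 fold change was 0.43 ± 0.35 (SE) with all libraries (interval -0.36 to 1.23, edgeR adjusted p = 0.708) and 0.10 ± 0.19 (SE) without control replicate 1 (interval -0.29 to 0.49, edgeR adjusted p = 0.808). Its sign turned to -0.11 when control replicate 2 was left out as well, and to -0.03 when A20-overexpressing replicate 3 was. Of the 9 pericyte and smooth muscle markers, 6 or 7 had a count in each library but control replicate 1, where all 9 did. Rgs5, Cspg4 and Tagln had only 1 count each there, and Rgs5 was at 0 in the other libraries. The 9 markers summed to 115 to 186 CPM in the controls and 149 to 166 CPM in A20 overexpression.

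Pdgfrl, which encodes a secreted receptor-like protein without a kinase domain, had its lowest level in control replicate 1. Pdgfrl (ENSMUSG00000031595, chromosome 8, 40926212 to 40990785, plus strand) stood at 59.0, 113 and 88.1 CPM in the controls and at 121, 108 and 101 CPM in A20 overexpression. Control replicate 2 lay inside the range of the A20-overexpressing libraries. The log2 fold change was 0.34 ± 0.27 (SE) with all libraries (interval -0.27 to 0.95, edgeR adjusted p = 0.693) and 0.09 ± 0.16 (SE) without control replicate 1 (interval -0.24 to 0.41, edgeR adjusted p = 0.800). It turned to -0.12 when control replicate 3 was left out as well.

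**Figure D3:**
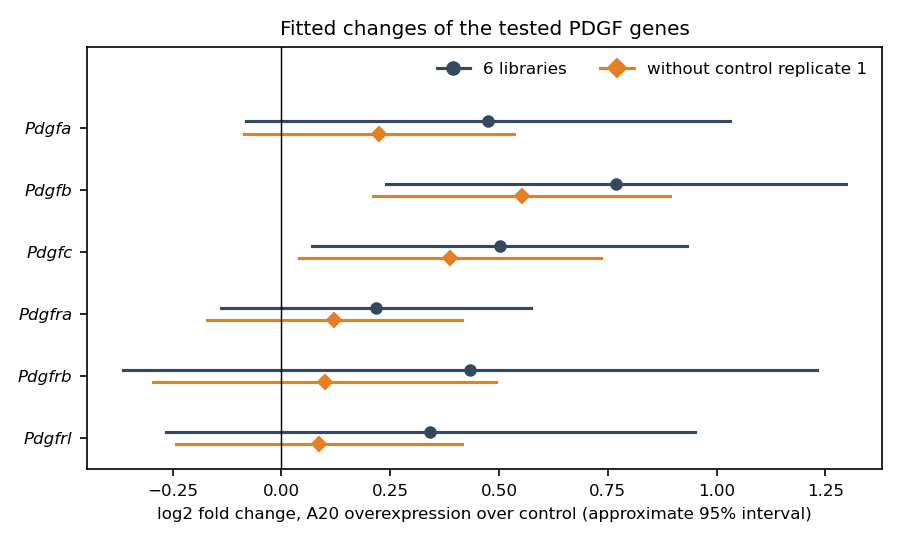
Fitted log2 fold change of A20 overexpression over control (horizontal axis) with approximate 95% intervals for the 6 PDGF genes that passed the filter, with all 6 libraries (circles) and without control replicate 1 (diamonds). Every estimate is above 0 and smaller without control replicate 1, and the intervals of Pdgfb and Pdgfc lie above 0 in both, before adjustment over all genes.

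Most members had low levels in control replicate 1. It was the lowest of the 6 libraries in CPM for Pdgfa, Pdgfb, Pdgfra, Pdgfrb and Pdgfrl, and for Pdgfc it was second to control replicate 3. The share of all genes lowest in control replicate 1 was not counted, so these low levels are not shown to be particular to PDGF genes. In deposited FPKM (counts relative to gene length and to a library size that was rescaled) this library was the lowest for Pdgfc too. Its CPM was 0.41 times the mean of the other 5 libraries for Pdgfrb, 0.51 times for Pdgfb, 0.53 times for Pdgfa, 0.56 times for Pdgfrl, 0.73 times for Pdgfc and 0.86 times for Pdgfra. All 6 log2 fold changes were above 0 in both comparisons, where 46.0% and 49.7% of all genes tested were, and all 6 were smaller without this library.

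Levels of different members were compared per gene length, in the deposited FPKM. Pdgfrl was the highest in each of the 6 libraries, at 16.9 to 38.6 FPKM. Pdgfrb was the lowest of the 6 genes found in every library, at 2.09 to 6.84 FPKM. Between them lay Pdgfa (7.74 to 18.3 FPKM), Pdgfra (10.1 to 14.7 FPKM), Pdgfc (7.95 to 15.1 FPKM) and Pdgfb (4.87 to 13.3 FPKM), and the ranges over libraries overlapped between all neighbours in this order, Pdgfrl and Pdgfrb included. The ratio of alpha to beta receptor was 4.85 in control replicate 1, while control replicates 2 and 3 had 2.71 and 2.04. The A20-overexpressing libraries had 2.76, 2.60 and 1.84. Pdgfra therefore made up 64.8% to 82.9% of the FPKM of the pair, with no separation of the groups.

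Among the ligands, Pdgfa held the largest share in 5 libraries and Pdgfd in the remaining one. In control replicate 1 the summed ligand level of 34.9 FPKM was made up of 41.0% Pdgfd, 22.8% Pdgfc, 22.2% Pdgfa and 14.0% Pdgfb. In control replicates 2 and 3 the sums were 34.9 and 32.4 FPKM, with Pdgfa at 42.4% and 46.1%. The A20-overexpressing libraries summed to 42.1, 44.2 and 43.5 FPKM, above each control, with Pdgfa at 39.0%, 41.4% and 39.9%. These sums hold the same Pdgfa, Pdgfb and Pdgfc levels that separated the groups above, so they are not a further result, and they were not tested.

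**Figure D4:**
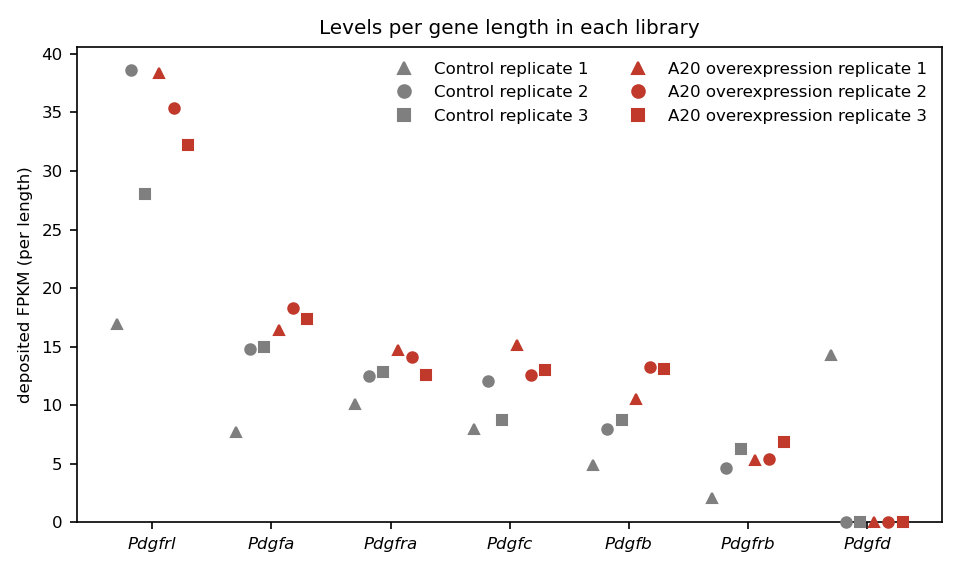
Deposited FPKM (vertical axis, counts per gene length and scaled library size) of the 7 genes (horizontal axis, ordered by mean) in each control (grey) and A20-overexpressing (red) library, with symbols for the replicate number. Pdgfrl is highest in every library, at 16.9 to 38.6 FPKM, and Pdgfd is at 14.3 FPKM in control replicate 1 and at 0 in the others.

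Genes whose levels ran most like a member's over the 6 libraries were found among 9781 other protein-coding genes that averaged 5 CPM or more. Likeness was the root mean square difference in log2(CPM + 0.5) after each gene was centred on its own mean, so that 0 is an identical pattern. For Pdgfra these included Cdt1 and Enc1, at 0.028 and 0.041. Pdgfa was nearest to Evl, Casd1 and Sppl3 (0.050, 0.055 and 0.061) and Pdgfb to Zfp362, Btbd19 and Eef2 (0.067, 0.099 and 0.10). Pdgfc was nearest to Fam198b, Rac1 and Gmds (0.073, 0.087 and 0.089), Pdgfrb to Cers1, Adgrb2 and Pou6f1 (0.086, 0.104 and 0.108), and Pdgfrl to Prkd1, Tnfrsf10b and Fam241a (0.059, 0.068 and 0.076). Gca, Rassf4 and Cd36 were nearest to Pdgfd, at 0.014, 0.028 and 0.039, and each was at 0 in the 5 libraries where Pdgfd was. No other member was among the 3 nearest genes of any member. The closest pair of members was Pdgfa and Pdgfb, at 0.163, and Pdgfa was the 45th nearest gene to Pdgfb. These likenesses did not hold without control replicate 1, a comparison added after seeing the data. Of the 18 genes nearest to the 6 members other than Pdgfd, 0 were still among the nearest 3. The closest pair of members was then Pdgfa and Pdgfra, at 0.109. No other library was left out in this way, so a dependence on control replicate 1 in particular is not shown.

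Around the members, genes that process PDGF ligands moved in both directions without control replicate 1. Of 12 such genes and matrix binders, 9 were tested, 3 rose, 1 fell and 5 did not pass edgeR's test, where 1.92% of all genes rose and 2.68% fell. Pcsk6, a furin-type convertase, stood at 20.6, 22.9 and 39.0 CPM in the controls and at 62.7, 61.3 and 87.6 CPM in A20 overexpression, rising 2.24-fold (log2 fold change 1.16 ± 0.21 (SE), edgeR adjusted p = 0.00661). Every A20-overexpressing library lay above every control. Furin, which cuts the A and B chains, stood at 32.2, 18.8 and 28.8 CPM against 40.6, 36.3 and 45.9 CPM, without overlap, and rose 1.69-fold (edgeR adjusted p = 0.0299).

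Plat, which encodes the tissue plasminogen activator that activates PDGF-C, fell in the same comparison. It stood at 10.2, 36.9 and 34.2 CPM in the controls and at 20.5, 23.5 and 19.0 CPM in A20 overexpression, 1.74-fold lower without control replicate 1 (edgeR adjusted p = 0.0161). Control replicate 1 lay below every A20-overexpressing library, on the far side from the other controls. Plau, the urokinase that activates PDGF-D, had a log2 fold change of -0.20 ± 0.16 (SE, edgeR adjusted p = 0.481). It stood at 39.1, 36.6 and 37.0 CPM in the controls and, without overlap, at 33.5, 32.5 and 32.4 CPM in A20 overexpression. Of the 9 tested genes of this list, 2 separated the groups upward and 2 downward with all libraries. Without control replicate 1, 3 did so in each direction. Over all genes, 16.9% and 37.9% separated the groups in either direction. Thbs1, a matrix protein, rose as well (log2 fold change 0.68, edgeR adjusted p = 0.0229), although control replicate 1, at 192 CPM, lay within the A20-overexpressing range of 139 to 196 CPM. With all 6 libraries edgeR called 0 of these 9, and 2 had an unadjusted p under 0.05, beside 10.0% of all genes. DESeq2, whose total over all genes is given below, called 1 and limma-voom 0. Pcsk6 stayed past the threshold when any 1 of the 5 libraries was left out, whereas Plat lost it in 3, Furin in 4 and Thbs1 in 2 of those 5 fits. DESeq2 and limma-voom also called 4 genes of this list without control replicate 1. The shares of all genes that these tools called in those 5 libraries are not given here, so these counts have no background beside them. In the same libraries limma-trend on log2 FPKM called 0, and its adjusted p for Pcsk6 was 0.0724 with a pseudocount of 1 and 0.074 with 0.1.

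Of 35 adaptors and effectors tested, 1 rose, 0 fell and 34 did not pass edgeR's test without control replicate 1, with a median log2 fold change of 0.05. Over all genes 1.92% rose and 2.68% fell, so a single gene of this list is near the background share. The gene called was Map2k2, a kinase of the MAP kinase cascade, at 132, 82.5 and 114 CPM in the controls and 128, 159 and 172 CPM in A20 overexpression (edgeR adjusted p = 0.0423). It lost its call in 4 of the 5 fits that left out 1 more library, without robust estimation (adjusted p = 0.0574), with limma-voom (0.0532) and with limma-trend (0.136 and 0.138). Of 9 co-receptors and endocytic genes tested 0 passed, 2 were higher at an unadjusted p under 0.05, where 10.4% of all genes were, and DESeq2 called 0. Lrp1, their most abundant member and a co-receptor of the beta receptor, had a log2 fold change of 0.04 ± 0.15 (SE), which turned to -0.15 without control replicate 2. Of 14 phosphatases and feedback inhibitors edgeR and DESeq2 called 0, with 5 higher at an unadjusted p under 0.05, beside the same 10.4%. Ptprk, the most abundant of these, had a log2 fold change of 0.08 ± 0.14 (SE).

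Of 16 immediate early genes, which PDGF and serum induce, 1 rose and 15 did not pass without control replicate 1, where 1.92% of all genes rose. Myc, the growth-promoting transcription factor, stood at 122, 38.1 and 49.8 CPM in the controls and at 73.5, 66.9 and 82.1 CPM in A20 overexpression, 1.65-fold higher without control replicate 1 (edgeR adjusted p = 0.0151). Control replicate 1 lay above every other library. The call was lost in 3 of the 5 fits that left out 1 more library and with limma-trend (adjusted p = 0.0655 and 0.0696). Fos, which codes for an AP-1 subunit, stood at 30.0, 6.62 and 26.0 CPM against 9.34, 6.13 and 8.94 CPM, with the groups overlapping.

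Of 17 markers of Leydig progenitors and stroma, 9 were tested. Without control replicate 1, the log2 fold change was above 0 for 6 of these 9, where 49.7% of all genes tested were. The median of the 9 was 0.036, so the list did not fall as a whole. The 3 that fell without control replicate 1 were Dcn, a matrix proteoglycan, Cd34, a surface marker of stromal progenitors, and Igf1, a growth factor, by 2.02, 2.87 and 1.11 on the log2 scale (edgeR adjusted p = 2.58e-06, 9.25e-06 and 0.0452), and 0 rose, where 2.68% of all genes fell and 1.92% rose. Igf1 lost its call in 3 of the 5 further fits, with upper-quartile factors (adjusted p = 0.0514), library size alone (0.0687), no robust estimation (0.0567) and limma-trend (0.137 and 0.168). Dcn and Cd34 lost theirs in none of the 16 alternatives. Control replicate 1 lay below every A20-overexpressing library for Dcn (21.4 CPM) and Igf1 (1.43 CPM). Nr2f2, a transcription factor of Leydig progenitors, stood at 151, 131 and 108 CPM in the controls and 176, 136 and 144 CPM in A20 overexpression. Tcf21 and Lum, other genes of interstitial stroma, were at 0 in all 6 libraries, beside Pdgfra at over 100 CPM in each. With all 6 libraries edgeR called 0 genes in each of these lists. Per list, 1 to 3 had an unadjusted p under 0.05, beside 10.0% of all genes, and DESeq2 called Pcsk6 and Cd34.

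**Figure D5:**
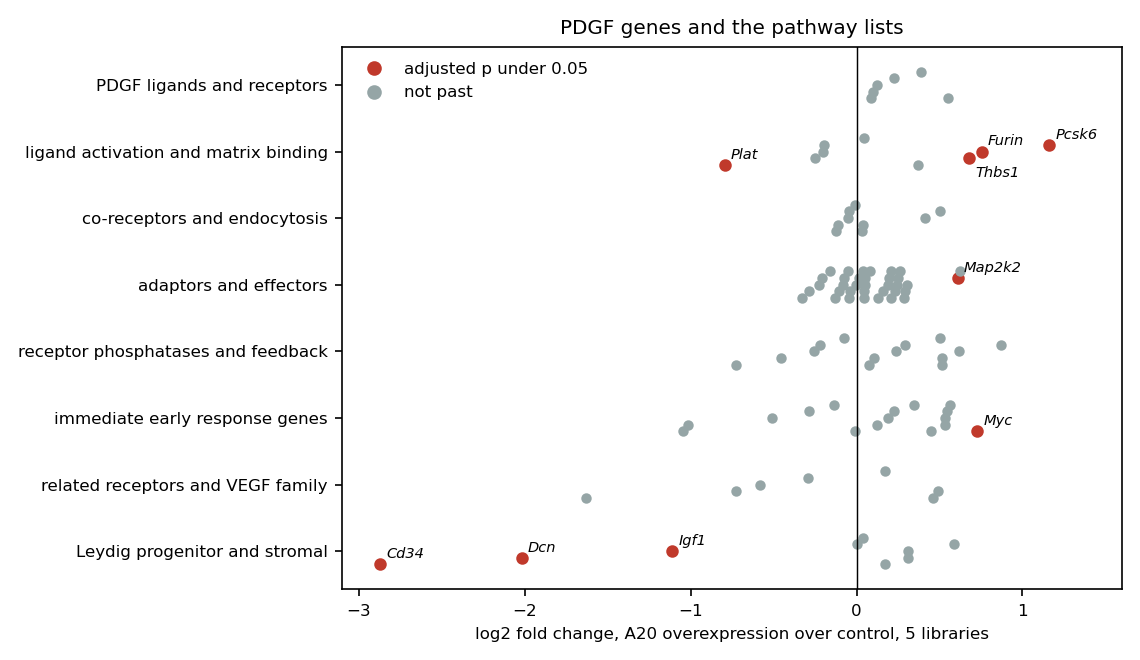
Log2 fold change of A20 overexpression over control without control replicate 1 (horizontal axis) for each tested gene of the PDGF family and of 7 lists around it (rows; vertical scatter within a row has no meaning). Red points passed an adjusted p under 0.05 in edgeR and are named, and no PDGF gene is among them; Pcsk6 lies at 1.16 and Cd34 at -2.87.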

How the data were processed

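RNA of TM3 cells was sequenced in 3 control and 3 A20-overexpressing libraries made with a SMARTER mRNA kit, per the labels' protocols. The genome build was GRCm38 (mm10), per the submitters' processing notes. Which aligner and counter were used, and whether strand was kept, is not given in the sources used here. The deposited counts are whole numbers per gene and were tested as deposited. The deposited FPKM equal the count divided by gene length and by 1 scaled library size per library made by the authors, and served for levels per length and for alternatives. Total counts were 13841287 to 16917979.

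Groups were compared in R 4.3.3 with edgeR 4.0.16 (quasi-likelihood, robust, TMM factors, group alone in the design). Low genes were removed by the default filter, and p-values were adjusted over the rest by Benjamini-Hochberg (threshold 0.05). The model was fitted on all 6 libraries and without control replicate 1. The standard error of a log2 fold change is its size over the square root of F, and intervals use the test's degrees of freedom. The text names all 7 members, Tnfaip3, genes of 7 lists that passed, or else the most abundant one, and the 3 genes most like each member, apart from items not reported here; Plau, Fos, Nr2f2, the relatives of PDGF other than Vegfa and the marker genes were named after their values were seen. Members and lists were chosen with earlier results of these data known. Alternatives used DESeq2 1.42.0, limma 3.58.1, other scalings and filters, FPKM with pseudocounts of 1 and 0.1, a replicate block and leaving out libraries. The procedure was tested on simulated data. No 2 libraries agreed within sampling noise: the chi-square per degree of freedom between counts was at least 8.94. Promoters came from RefSeq (GRCm38.p6), with entries for 4 of 7 members, and overlapping genes from GENCODE M21. Of the list symbols, 1 was not in the count table.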

Additional observations from a re-analysis of the deposited data

How the results depend on the processing

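With all 6 libraries, 0 PDGF genes passed under each of the 17 alternatives, and no PDGF gene changed direction. In the 5 libraries without control replicate 1, 1 passed without the filter on low counts, with DESeq2 and with the replicate block (Pdgfb each time), and 0 to 1 when a further library was left out. In such fits the log2 fold change of Pdgfrb ran from -0.11 to 0.35 (-0.03 without A20-overexpressing replicate 3), of Pdgfrl from -0.12 to 0.33 and of Lrp1 from -0.15 to 0.27. With all 6 libraries, Vegfa had -0.012 with library size alone, and leaving out 1 library gave -0.062 to 0.17 for Vegfa (-0.0034 without A20-overexpressing replicate 2) and -0.10 to 0.73 for Myc (-0.02 without control replicate 3).

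Of all genes, edgeR called 2 with 6 libraries. Upper-quartile factors, library size alone, limma-voom, limma-trend on either FPKM scale and a fit without robust estimation called 0, no filter called 23 and DESeq2 162, and leaving out 1 library gave 0 to 628. In the 5 libraries edgeR called 628, no filter 1173, limma-trend 109 on log2(FPKM + 1) and 63 on log2(FPKM + 0.1), and leaving out 1 more library gave 142 to 2423. The cause was not tested. The labels number the replicates alike in both groups, but no pairing by number was seen. Deviations from the group means of same-numbered libraries correlated at 0.03, 0.11 and -0.04 across genes, and of the controls only replicate 2 correlated best with its own number. The control means included control replicate 1, which stood apart, and the correlations were not repeated without it. They therefore cannot decide whether the libraries were paired. The replicate block called 2 genes with 6 libraries and 797 with 5, where the adjusted p was 0.0394 for Pdgfb and 0.0651 for Igf1. Leaving out a 2nd control leaves 1, which is assumed to vary like the other libraries. At 196 to 2507 counts per library, counting error was small for the 6 tested members, and the number of libraries limits precision.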

Other observations

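Relatives of the PDGF genes, the other class III receptor tyrosine kinases and the VEGF family, held 7 tested genes of 14 in the table. With 6 libraries and without control replicate 1, edgeR and DESeq2 called 0 of them. At an unadjusted p under 0.05, 1 was higher and 3 were lower with 6 libraries, where 10.0% of all genes passed in either direction, and 2 were higher and 2 lower without that library, where 21.6% did. Vegfa, the most abundant, stood at 282, 198 and 185 CPM in the controls and at 200, 232 and 232 CPM in A20 overexpression. Vegfb, which like the PDGF ligands belongs to the cystine knot growth factors, stood at 40.1, 39.3 and 46.3 CPM against 55.4, 67.0 and 58.2 CPM, without overlap (log2 fold change 0.46 ± 0.16 (SE), edgeR adjusted p = 0.0952 without control replicate 1). Vegfd went the other way, at 73.4, 18.6 and 31.7 CPM against 19.1, 14.3 and 13.0 CPM, with overlap. Its log2 fold change was -0.72 ± 0.23 (SE, edgeR adjusted p = 0.0742) without control replicate 1. Groups did not overlap for 1 higher and 2 lower genes with 6 libraries, and for 3 higher and 2 lower without that library. Over all genes, 16.9% and 37.9% separated the groups in either direction. The lower genes were Flt1 and Flt3l both times. Kit, the stem cell factor receptor, had the pattern of Pdgfd, at 15.5 CPM in control replicate 1 and 0 in the others, and its ligand gene Kitl stood at 140 CPM there against 20.8 to 31.4 CPM. Flt3, Kdr and Flt4 were below 0.2 CPM in every library.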
